A study of Homo sapiens with 12 samples.

Results

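The genes described here encode collagens, laminins, integrins and the proteins that bind them together at the cell surface, in Huh7 hepatocellular carcinoma (HCC) cells with and without knockdown of FAM111B. They were chosen by a rule on gene names, with earlier results of these data known. The names were those of collagen chains (COL), laminin chains (LAMA, LAMB and LAMC), integrin subunits and other names that begin with ITGA or ITGB, fibronectin (FN1), the nidogens (NID1 and NID2), perlecan (HSPG2), agrin (AGRN) and the syndecans (SDC1 to SDC4). The deposited table listed 60666 genes, of which 96 matched these names, and 1 pseudogene was left out, so that 95 members remained. They comprised 44 collagens, 12 laminins, 2 nidogens, 2 basement membrane proteoglycans, FN1, 4 syndecans, 18 integrin alpha and 8 integrin beta subunits, and 4 genes (ITGB1BP1, ITGB1BP2, ITGB3BP and ITGBL1) whose names begin like an integrin's but which encode no integrin subunit.

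Huh7 is an established human HCC line. Its cells carried a lentiviral control sequence (3 libraries) or a lentiviral shRNA against FAM111B (shFAM111B, 3 libraries), and puromycin had been used to select infected cells for the stable lines. Hep3B libraries of the same study were not analysed here. A single shRNA sequence stands for the knockdown, the study states in general that experiments were repeated, but no source used here says whether the 3 libraries of a group came from separate cultures, and p-values therefore measure the spread between these libraries, which may be technical.

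Collagens are trimers of intertwined chains, and many of them assemble into fibrils or networks outside the cell. Laminins are heterotrimers of an alpha, a beta and a gamma chain that, with type IV collagen, nidogens and perlecan, build the basement membrane, the thin sheet on which epithelial cells rest. Integrins are heterodimers of an alpha and a beta subunit that span the plasma membrane, bind these proteins and link them to the actin cytoskeleton, and syndecans are cell surface proteoglycans that act beside them as co-receptors. In liver, hepatocytes are a main source of plasma fibronectin, whereas fibrillar collagens come largely from stellate cells and fibroblasts.

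The values are TPM, transcript abundances that allow for gene length and add up to about the same total in every library, so that levels of different genes can be set side by side. FAM111B itself had 7.84, 8.29 and 7.99 TPM in the control libraries and 0.96, 1.13 and 0.84 TPM after knockdown, with a log2 fold change of −2.20 ± 0.11 (SE). It passed the filter described below through the control libraries, where it is high, so its test is no independent support for the knockdown, whereas the values themselves did not overlap. The shRNA target, shown because it defines the knockdown, was found in 5 annotated transcripts, all of FAM111B and of no other gene, among the 206694 transcripts searched.

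shFAM111B target: ctgcctagtgattctcatt

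No transcript of the 95 members held this sequence, and the longest run that any member shared with it was 11 bases, in ITGB6. Since TPM carry no record of how many reads were sequenced, counting error could not be given for any value. A rise of some genes lowers the TPM of all others, and the median of the 14394 genes tested had a log2 fold change of −0.36. Hepatocyte markers summed to between 27329 and 27903 TPM in the control libraries and to between 40692 and 45672 TPM in the shFAM111B libraries. Of the 9 markers, AFP, APOA1 and TTR rose by at least 2-fold, APOB and HNF4A fell by at least 2-fold and 4 were lower by less, with a median log2 fold change of −0.56, and the higher sum was mainly that of AFP, with a mean of 7274 TPM in control and 23062 TPM in shFAM111B cells. Of 10 fibroblast or stellate cell markers, 7 (among them ACTA2, DCN, PDGFRA and THY1) were under 1 TPM in every library. The sum of the 10, 19.8 to 23.3 TPM in control and 144 to 165 TPM in shFAM111B libraries, came mostly from TAGLN. Of the other 3, LUM and TAGLN rose by at least 2-fold, as did 6.82% of all tested genes, and PDGFRB did not pass. Their median log2 fold change was 1.01. LUM (mean 0.883 TPM in control and 2.79 TPM in shFAM111B cells) passed the filter through the shFAM111B libraries, where it is high. The sums of the endothelial markers were at most 4.05 TPM in any library, and those of the leukocyte markers lay between 280 and 343 TPM. The leukocyte sum was mostly that of LYZ, with a mean of 262 TPM in control and 304 TPM in shFAM111B cells. CD3E and MS4A1 were under 1 TPM in every library. The part of these marker lists in the results below was not tested.

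To learn how the matrix and its receptors differed between control and shFAM111B cells, a gene was tested where it reached 1 TPM in at least 3 libraries, which 43 of the 95 members did. The summed level of the members fell from 3456 ± 61.0 TPM (SD, n = 3) in control to 2152 ± 46.7 TPM (SD, n = 3) in shFAM111B cells. The most abundant members weigh most in this sum, and FN1 alone went from a mean of 1198 to 538 TPM. Individual changes went in both directions, with a positive log2 fold change in 21 tested members and a negative one in 22. A call required a 2-fold difference with P under 0.05, and by it 6 members rose, against 6.82% of all tested genes, and 11 fell, against 23.7% of all tested genes, which is 14.0% and 25.6% of the members tested. The genes that rose were the collagens COL2A1, COL12A1, COL28A1, COL14A1 and COL9A3 and the integrin ITGAE. The genes that fell were ITGA6, NID1, ITGAV, ITGA1, ITGB1, SDC4, COL27A1, COL4A5, FN1, ITGA2 and SDC3. A further 7 members were higher and 10 lower at an adjusted p under 0.05 with a change of less than 2-fold, and 9 did not pass. At an adjusted p under 0.05 and any fold, 13 members were thus higher, against 21.1% of all tested genes, and 21 lower, against 50.9%, or 34 of 43 in either direction against 72.0%. The values of all 17 called members did not overlap between the groups, as those of 35 of the 43 tested members and 75.2% of all tested genes did not. The median log2 fold change was −0.02 over the tested members and −0.36 over all tested genes. At the fold threshold, 5 members had an absolute log2 fold change between 1 and 1.2 and 3 members one between 0.8 and 1. In bulk RNA, fewer cells that express a gene and less RNA per cell cannot be told apart, and 3 libraries against 3 cannot reach an exact permutation p below 0.1 for a single gene.

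**Figure D1:**
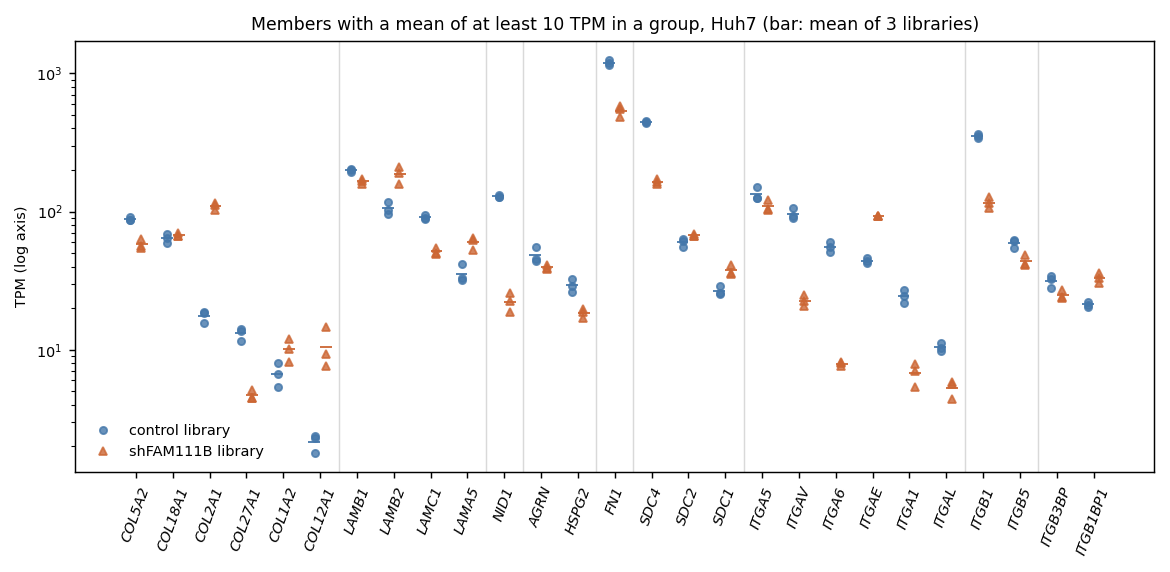
TPM on a log axis of the 27 members with a mean of at least 10 TPM in either group, with control libraries as circles, shFAM111B libraries as triangles and a bar at the mean of each group of 3 libraries; thin vertical lines separate the families. FN1 lay highest in both groups, with 1154 to 1241 TPM in control and 480 to 584 TPM in shFAM111B libraries, and COL2A1 lay above its control values by the widest margin.

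Fibronectin, the adhesive glycoprotein that integrins assemble into fibrils, was the most abundant member. FN1 had 1154, 1197 and 1241 TPM in the control libraries and 551, 584 and 480 TPM in the shFAM111B libraries. The groups did not overlap, and the mean fell from 1198 ± 43.9 to 538 ± 52.9 TPM (SD, n = 3). The log2 fold change was −1.16 ± 0.08 (SE, limma's moderated test, adjusted p = 1.44e-05). This call rested on the scaling: after median-of-ratios scaling, which sets the median tested gene to no change, FN1 stood at −0.73, and after quantile normalization at −1.56.

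The basement membrane genes moved apart from each other. The laminin beta chains went in opposite directions, since LAMB2 had 96.2, 103 and 118 TPM in control and 191, 159 and 211 TPM in shFAM111B libraries, whereas LAMB1 had 193, 204 and 201 TPM in control and 159, 171 and 165 TPM in shFAM111B libraries. Neither pair of groups overlapped. LAMB2 rose by 0.81 ± 0.12 (log2 fold change ± SE, adjusted p = 0.000664) and LAMB1 stood at −0.27 ± 0.05 (adjusted p = 0.00174), both under 2-fold by limma's moderated test. The ratio of LAMB2 to LAMB1 within a library, which no scaling factor changes, was 0.499, 0.503 and 0.588 in control and between 0.925 and 1.28 in shFAM111B cells. LAMB1 turned to 0.15 and 0.14 under median-of-ratios and upper-quartile scaling, and it overlaps DLD on the opposite strand, whose mean went from 119 to 44.1 TPM. The strand setting of the authors' counting is not given in the sources used here, so reads of overlapping genes may be shared. The same limit holds for other members, among them ITGB3BP, which overlaps PGM1 (mean 47.7 TPM in control and 34.6 TPM in shFAM111B cells). On the opposite strand as well, NID2 overlaps RTRAF (116 and 170 TPM), ITGA7 overlaps BLOC1S1 (68.0 and 187 TPM) and COL9A3 overlaps TCFL5 (5.92 and 5.13 TPM).

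LAMA5, the laminin alpha chain of most epithelial basement membranes, was the only alpha chain above 10 TPM in any library. It had 31.9, 33.0 and 41.4 TPM in control and 64.4, 52.5 and 62.6 TPM in shFAM111B libraries, without overlap, and a log2 fold change of 0.74 ± 0.12 (SE, limma's moderated test, adjusted p = 0.00113). LAMA5 overlaps ADRM1 on the opposite strand, which had a mean of 282 TPM in control and 315 TPM in shFAM111B cells. The common gamma chain LAMC1 went the other way, from 88.8, 89.9 and 93.7 TPM to 54.9, 49.5 and 50.4 TPM, again without overlap, and had a log2 fold change of −0.81 ± 0.06 (SE, limma's moderated test, adjusted p = 2.07e-05). The ratio of LAMA5 to LAMC1 therefore went from 0.390 ± 0.0454 to 1.16 ± 0.0919 (SD, n = 3). Among the laminin chains of low level, LAMB4 fell from 1.47 ± 0.207 to 0.733 ± 0.254 TPM (SD, n = 3, log2 fold change −0.52, adjusted p = 0.0259 by limma's moderated test), and LAMA3 did not pass (1.48 ± 0.219 and 1.57 ± 0.985 TPM). Both reached 1 TPM in every control library but not in every shFAM111B library, and LAMB4 was under 1 TPM in all of the latter, so its passing the filter rested on the control libraries. No laminin was called at 2-fold.

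Nidogen 1 links the laminin network to type IV collagen. NID1 had 131, 128 and 128 TPM in the control libraries and 22.6, 25.8 and 18.6 TPM in the shFAM111B libraries. Every shFAM111B value lay far below every control value, with a control mean 5.78 times that of shFAM111B cells and a log2 fold change of −2.49 ± 0.11 (SE, limma's moderated test, adjusted p = 3.99e-06). NID1 also fell relative to LAMC1, which its protein binds in the laminin trimer, since the ratio of the TPM went from 1.42 ± 0.0574 to 0.434 ± 0.0790 (SD, n = 3). NID2, its paralog, had 3.05, 1.74 and 2.30 TPM in control and 3.90, 3.58 and 1.72 TPM in shFAM111B libraries. These groups overlapped, and NID2 did not pass the test.

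Both basement membrane proteoglycans were lower by less than 2-fold. Perlecan (HSPG2) went from 26.2, 29.1 and 32.3 TPM to 19.6, 18.7 and 16.8 TPM, with a log2 fold change of −0.64 ± 0.10 (SE, limma's moderated test, adjusted p = 0.000784). Agrin (AGRN) went from 44.2, 45.4 and 55.6 TPM to 38.8, 38.3 and 41.2 TPM, with a log2 fold change of −0.28 ± 0.09 (SE, adjusted p = 0.0303), and stood between 0.03 and 0.13 under the other 3 scalings.

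The classical chains of type IV collagen, the sheet-forming collagen of basement membranes, were hardly detected. COL4A1 had between 0.32 and 0.96 TPM and its head-to-head neighbour COL4A2 between 0 and 0.73 TPM in the 6 libraries, and neither could be tested. COL4A5, an X-linked chain, was the type IV chain of the highest level, with 12.02, 7.59 and 8.66 TPM in control and 2.97, 2.84 and 3.86 TPM in shFAM111B libraries. The groups did not overlap, and its log2 fold change was −1.29 ± 0.18 (SE, limma's moderated test, adjusted p = 0.000543). The call was lost under each of the other 3 scalings (−0.94, −0.94 and −0.81).

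The collagens as a family showed more rises than falls. Of the 14 tested collagens, 5 rose by at least 2-fold, 2 fell by at least 2-fold, 2 were higher and 1 lower by less, and 4 did not pass. Over all tested genes, 6.82% rose and 23.7% fell, and over these collagens 35.7% and 14.3%. Their median log2 fold change was 0.48. The summed TPM of all 44 collagens went from 234 ± 4.53 to 314 ± 6.03 (SD, n = 3), and without COL2A1 from 216 ± 3.25 to 204 ± 1.11, so the higher sum of the shFAM111B libraries was that of COL2A1.

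COL2A1, the fibrillar collagen of cartilage, had 15.7, 18.9 and 18.5 TPM in control and 112, 116 and 103 TPM in shFAM111B libraries. The groups were far apart, the mean was 6.22-fold higher in shFAM111B cells, and the log2 fold change of 2.57 ± 0.09 (SE, limma's moderated test, adjusted p = 2.55e-06) was the largest rise among the members. COL12A1, a fibril-associated collagen, had 1.80, 2.36 and 2.29 TPM in control and 14.5, 9.30 and 7.61 TPM in shFAM111B libraries, without overlap, and a log2 fold change of 1.82 ± 0.22 (SE, adjusted p = 0.000253). COL14A1, also fibril-associated, had 2.14, 2.53 and 2.09 TPM in control and 6.79, 7.01 and 6.43 TPM in shFAM111B libraries, and a log2 fold change of 1.25 ± 0.11 (SE, adjusted p = 5.07e-05). These 3 collagens were called under every setting run.

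The calls of the other two collagens that rose depended on single libraries. COL28A1 had 1.57, 1.64 and 1.33 TPM in control and 3.28, 3.33 and 12.6 TPM in shFAM111B libraries, so that replicate 3 stood apart from its group. Its log2 fold change of 1.33 ± 0.44 (SE, limma's moderated test, adjusted p = 0.0278) was 0.78 without shFAM111B replicate 3, which ended the call, and the call was also lost without control replicate 3 (1.28). COL9A3 had 1.47, 1.07 and 1.15 TPM in control and 3.89, 2.88 and 5.50 TPM in shFAM111B libraries, and its log2 fold change went from 1.16 ± 0.21 (SE, adjusted p = 0.00175 by limma's moderated test) to 0.97 without shFAM111B replicate 3, just under 2-fold. COL9A2, which joins COL9A3 in type IX collagen, did not pass (8.72 ± 0.983 and 9.89 ± 1.17 TPM, SD, n = 3), and COL9A1, the remaining chain, was at most 0.13 TPM in any library.

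COL27A1, a fibrillar collagen, fell from 14.2, 11.6 and 13.8 TPM to 5.15, 4.48 and 4.51 TPM, without overlap. Its log2 fold change was −1.31 ± 0.11 (SE, limma's moderated test, adjusted p = 4.09e-05), and it missed 2-fold under each of the other 3 scalings (−0.93, −0.94 and −0.79). The most abundant collagen of the control cells was COL5A2, a chain of type V collagen, which regulates fibril diameter, with 90.7, 86.3 and 86.7 TPM in control and 56.6, 63.0 and 54.6 TPM in shFAM111B libraries. It was lower by less than 2-fold, with a log2 fold change of −0.59 ± 0.07 (SE, adjusted p = 0.000157), while COL5A1, with which it forms trimers, was listed at 0 in all libraries. COL18A1, whose fragment is endostatin, had 59.2, 64.6 and 68.3 TPM in control and 66.8, 66.7 and 69.8 TPM in shFAM111B libraries. These values overlapped, and the 95% interval of its log2 fold change ran from −0.07 to 0.24. COL18A1 stood higher, at 0.50, 0.49 and 0.26, under the other 3 scalings. It was at 0.74 with the trend over transcript length and expression, described below, removed.

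Type I collagen was represented by COL1A2, with 6.66, 7.98 and 5.39 TPM in control and 10.2, 11.96 and 8.11 TPM in shFAM111B libraries (log2 fold change 0.53 ± 0.17, SE, adjusted p = 0.0288 by limma's moderated test). The groups did not overlap. COL1A1, which supplies the other chain of the same trimer, had between 0.57 and 0.76 TPM in control and between 0.21 and 0.32 TPM in shFAM111B libraries and was not tested. COL6A1 had 5.15, 7.16 and 5.68 TPM in control and 7.07, 6.0 and 6.42 TPM in shFAM111B libraries, overlapped and did not pass, and its partner COL6A2 was at most 0.18 TPM. COL26A1 rose from 6.06 ± 0.249 to 8.73 ± 0.719 TPM (SD, n = 3, log2 fold change 0.46, adjusted p = 0.00403 by limma's moderated test), and COL7A1, the anchoring fibril collagen, did not pass (1.66 ± 0.499 and 2.76 ± 0.685 TPM).

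**Figure D2:**
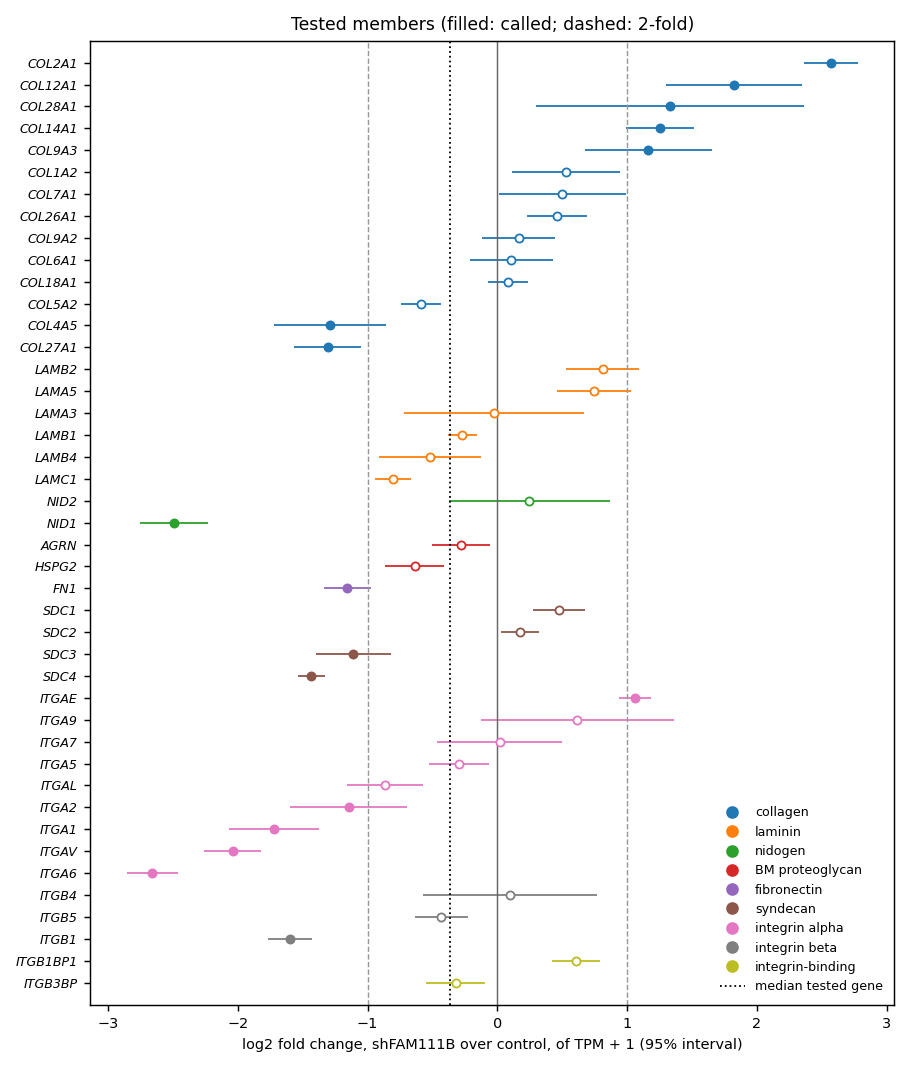
Log2 fold change (shFAM111B over control, of TPM + 1) of the 43 tested members with its 95% interval, coloured by family; filled points were called at 2-fold, dashed lines mark 2-fold and the dotted line marks the median tested gene at −0.36. COL2A1 (2.57) and ITGA6 (−2.66) stood at the ends of the scale, and the called collagens and the called integrin subunits lay mostly on opposite sides of 0.

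The integrin subunits were lower in summed level. The 26 subunits summed to 791 ± 15.2 TPM in control and to 417 ± 17.4 TPM in shFAM111B cells (SD, n = 3), and of the 12 tested, 1 rose, 5 fell, 3 were lower by less than 2-fold and 3 did not pass. The 41.7% that fell stand beside 23.7% of all tested genes and 37.9% of those of 4000 to 8000 nt. The 8.33% that rose stand beside 6.82% of all tested genes. ITGB1, the beta subunit shared by most receptors for collagen, laminin and fibronectin, had 367, 351 and 341 TPM in control and 116, 127 and 106 TPM in shFAM111B libraries. The groups did not overlap, the control mean was 3.04 times that of shFAM111B cells, and the log2 fold change was −1.60 ± 0.07 (SE, limma's moderated test, adjusted p = 4.20e-06).

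The alpha subunits that pair with ITGB1 did not fall evenly. ITGA6, a laminin receptor subunit, fell the most of all members, from 60.5, 55.5 and 50.7 TPM to 8.06, 8.13 and 7.59 TPM, which is a control mean 7.01 times that of shFAM111B cells and a log2 fold change of −2.66 ± 0.08 (SE, limma's moderated test, adjusted p = 2.22e-06). ITGAV, which binds fibronectin and vitronectin and also pairs with ITGB5, fell from 107, 90.4 and 92.7 TPM to 22.6, 24.8 and 20.7 TPM (−2.04 ± 0.09, SE, adjusted p = 4.11e-06). ITGA5, the alpha subunit of the classical fibronectin receptor, had 126, 126 and 152 TPM in control and 122, 103 and 104 TPM in shFAM111B libraries, and its log2 fold change of −0.29 ± 0.10 (SE, adjusted p = 0.0299) turned to 0.13 and 0.12 under median-of-ratios and upper-quartile scaling. For ITGA6 and ITGAV the groups were far apart, and for ITGA5 the highest shFAM111B value came within a few TPM of the lowest control value. The ratio of ITGA5 to ITGAV went from 1.41 ± 0.225 to 4.86 ± 0.635, and that of ITGA5 to ITGA6 from 2.45 ± 0.477 to 13.8 ± 1.24 (SD, n = 3).

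The collagen-binding subunits ITGA1 and ITGA2 also fell. ITGA1 had 27.0, 24.6 and 21.8 TPM in control and 7.89, 7.07 and 5.34 TPM in shFAM111B libraries (log2 fold change −1.72 ± 0.15, SE, adjusted p = 4.20e-05 by limma's moderated test), but it shares exons with PELO on the same strand, which had 20.2 TPM in control and 17.9 TPM in shFAM111B cells, so its values are uncertain. ITGA2 had 6.81, 5.57 and 5.54 TPM in control and 1.59, 1.94 and 3.08 TPM in shFAM111B libraries (−1.14 ± 0.19, SE, adjusted p = 0.00126), and it missed 2-fold under each of the other 3 scalings (−0.82, −0.83 and −0.75). Neither gene's groups overlapped. ITGA7 (1.90 ± 0.570 and 1.92 ± 0.479 TPM, SD, n = 3) and ITGA9 (0.700 ± 0.443 and 1.65 ± 0.839 TPM) did not pass, and ITGA3, ITGA4, ITGA8, ITGA10 and ITGA11 were not tested, with at most 1.93 TPM in any library.

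The 12 alpha subunits known to pair with ITGB1 summed to 320 ± 12.6 TPM in control and to 154 ± 10.0 TPM in shFAM111B cells (SD, n = 3), beside 353 ± 13.0 and 116 ± 10.7 TPM of ITGB1. In the control cells, ITGA5 made up 42.0% of the mean of this sum, ITGAV 30.1%, ITGA6 17.3% and ITGA1 7.64%. In the shFAM111B cells, ITGA5 made up 71.2%, ITGAV 14.8%, ITGA6 5.15% and ITGA1 4.397%. These are shares of RNA, and the receptors on the cell surface were not measured here.

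Among the other integrin subunits, ITGB5 had 54.1, 61.6 and 62.4 TPM in control and 41.0, 48.2 and 42.1 TPM in shFAM111B libraries, without overlap (log2 fold change −0.43 ± 0.09, SE, adjusted p = 0.00314 by limma's moderated test). ITGB4, the partner of ITGA6 in hemidesmosomes, had 1.46 ± 0.874 and 1.57 ± 0.520 TPM (SD, n = 3) and did not pass. ITGAL, known as a leukocyte integrin subunit, was lower by less than 2-fold, from 10.3, 11.2 and 9.87 TPM to 5.69, 5.88 and 4.39 TPM (−0.86 ± 0.12, SE, adjusted p = 0.000569), while its partner ITGB2 was at most 0.15 TPM. ITGAE was the only integrin subunit called higher, with 44.1, 46.0 and 42.2 TPM in control and 93.2, 93.3 and 92.3 TPM in shFAM111B libraries.

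The ITGAE groups did not overlap, and the log2 fold change was 1.06 ± 0.05 (SE, limma's moderated test, adjusted p = 4.93e-06). ITGB7, its known partner in intraepithelial lymphocytes, was listed at 0 in all 6 libraries. ITGAE overlaps HASPIN on the opposite strand, whose mean went from 10.5 to 2.72 TPM.

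The syndecans split in pairs. SDC4, the syndecan of focal adhesions and the second most abundant member in control cells, had 447, 441 and 449 TPM in control and 162, 159 and 172 TPM in shFAM111B libraries. The groups did not overlap, and the log2 fold change was −1.43 ± 0.04 (SE, limma's moderated test, adjusted p = 2.15e-06). SDC3 fell from 4.76, 4.15 and 5.20 TPM to 1.66, 1.69 and 1.55 TPM (−1.11 ± 0.12, SE, adjusted p = 0.000150), and missed 2-fold under each of the other 3 scalings (−0.80, −0.81 and −0.77).

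SDC1, the main syndecan of epithelial cells, was higher by less than 2-fold, from 26.0, 28.8 and 25.2 TPM to 36.2, 35.1 and 41.2 TPM (log2 fold change 0.48 ± 0.08, SE, adjusted p = 0.00177 by limma's moderated test). SDC2 went from 63.1, 61.2 and 55.4 TPM to 66.8, 66.8 and 68.9 TPM (0.17 ± 0.06, SE, adjusted p = 0.0387). In neither gene did the groups overlap. The ratio of SDC4 to SDC2 went from 7.46 ± 0.557 to 2.43 ± 0.0573 (SD, n = 3).

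Of the 4 genes that encode no integrin subunit, 2 were tested. ITGB1BP1, whose product binds the tail of ITGB1 and restrains its activation, went from 21.2, 22.3 and 20.5 TPM to 30.4, 33.0 and 35.8 TPM, without overlap (log2 fold change 0.61 ± 0.08, SE, adjusted p = 0.000338 by limma's moderated test). ITGB3BP, a centromere protein also named for its binding to ITGB3, went from 32.4, 34.1 and 28.0 TPM to 23.6, 27.2 and 24.0 TPM (−0.32 ± 0.10, SE, adjusted p = 0.0184), and stood between 0.08 and 0.10 under the other 3 scalings.

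The remaining 52 members did not reach the filter, among them 30 of 44 collagens, 6 of 12 laminins and 14 of 26 integrin subunits. Of these, 8 were listed at 0 in every library. Of the 43 members that passed, 39 reached 1 TPM in every library of both groups, 2 (LAMA3 and LAMB4) in every control library only, and 2 (ITGA9 and ITGB4) in a mix of libraries of both groups.

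To show what lies upstream of some of the called genes, stretches before the transcription start were taken from RefSeq (GRCh38.p14), where 69 of the 95 members had an entry. Those of FN1 and SDC4, the most abundant members in control cells, NID1, the matrix gene with the largest fall, and COL12A1, the riser with an entry and the largest rise, are printed 5′ to 3′ on the gene's strand, without annotated exons. FN1 is at chr2:215436173-215436252 (minus strand), SDC4 at chr20:45348425-45348574 (minus strand), NID1 at chr1:236065163-236065312 (minus strand) and COL12A1 at chr6:75206054-75206203 (minus strand). Capitals mark matches on either strand to a GC box, a CCAAT box, a TATA-like run, a cAMP response element or an AP-1 site, and GC box matches can overlap each other.

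FN1: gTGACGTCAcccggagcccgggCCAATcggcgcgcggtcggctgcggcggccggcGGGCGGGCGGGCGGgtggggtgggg
SDC4: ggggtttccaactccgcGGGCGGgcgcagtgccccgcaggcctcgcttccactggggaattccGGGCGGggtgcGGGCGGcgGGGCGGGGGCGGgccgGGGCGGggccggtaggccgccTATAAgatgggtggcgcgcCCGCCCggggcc
NID1: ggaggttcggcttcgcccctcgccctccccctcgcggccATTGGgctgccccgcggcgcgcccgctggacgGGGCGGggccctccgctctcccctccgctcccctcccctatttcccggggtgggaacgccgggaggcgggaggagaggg
COL12A1: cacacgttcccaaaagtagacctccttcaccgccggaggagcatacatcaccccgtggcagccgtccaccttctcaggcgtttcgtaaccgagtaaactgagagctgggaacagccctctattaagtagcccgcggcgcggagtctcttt

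The FN1 stretch held 3 GC box matches, 1 CCAAT box and 1 cAMP response element, the SDC4 stretch 7 GC boxes and 1 TATA-like run, the NID1 stretch 1 GC box and 1 CCAAT box, and the printed COL12A1 stretch none of them. These stretches differ in length and place, so their counts are not comparable. That of FN1 has 80 bases, 105 to 184 before the start, and that of NID1 has 150 bases, 73 to 222 before it. Those of SDC4 and COL12A1 are the 150 bases next to the start. Within the 250 bases before the start, a GC box, spelled GGGCGG, was found in 42.6% of all 35116 promoters, in 44 of the 69 members with an entry, in 8 of the 11 that fell and, among the 3 risers with an entry, in COL12A1, farther upstream than the printed stretch. A CCAAT box, spelled by its name, was found in 32.01% of all promoters, 3 of the 11 fallers and 1 of the 3 risers. A TATA-like run, spelled TATAA, was found in 18.9% of all promoters and in FN1, ITGA6, ITGB1 and SDC4 among the fallers, in FN1 outside the printed stretch. The cAMP response element, spelled TGACGTCA, was found in 1.65% of all promoters and, among the 69 members, in FN1 alone. An AP-1 site, spelled TGANTCA, was found in 6.57% of all promoters and in none of the 11 fallers and 3 risers with an entry. A match to these letters is a description of the sequence and not a site of binding.

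The fold changes followed transcript length across the whole table, and the members are long. The longest annotated transcript of the 95 members ran from 1285 to 14327 nt, with a median of 5766 nt. Among all tested genes, the median log2 fold change was 0.27 for genes with a longest transcript of up to 2000 nt, −0.31 for those of 2000 to 4000 nt, −0.78 for those of 4000 to 8000 nt and −0.94 for longer ones. In the class of 2000 to 4000 nt, 4.57% of all tested genes rose and 18.7% fell, and of the 8 members there, 2 rose and 2 fell. In the class of 4000 to 8000 nt, 2.16% of all tested genes rose and 37.9% fell, whereas 3 of the 27 members there rose and 7 fell, with a median of −0.28. In the class above 8000 nt, 1.46% of all tested genes rose and 44.7% fell, and of the 7 members there, COL12A1 rose and FN1 and ITGA1 fell.

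With the trend over length and expression removed, 12 members rose and 6 fell, beside 10.4% and 8.38% of all tested genes, and the members' median was 0.54. Under this setting COL2A1 stood at 3.22, COL12A1 at 2.84, ITGA6 at −1.82, NID1 at −1.82, SDC4 at −1.37, ITGB1 at −1.34, ITGAV at −1.30 and FN1 at −1.09, all past 2-fold. COL27A1 (−0.27), COL4A5 (−0.34), ITGA1 (−0.67), ITGA2 (−0.22) and SDC3 (−0.29) were no longer called, and LAMA5 (1.51), LAMB2 (1.28), COL1A2 (1.49), COL7A1 (1.32), ITGA9 (1.24) and ITGB1BP1 (1.35) were. Over the 14 tested collagens, the median was 1.14, and over the 12 integrin subunits 0.08. The source of the length trend was not tested.

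Across every setting run, 5 of the 11 fallers (ITGA6, ITGAV, ITGB1, NID1 and SDC4) and 4 of the 6 risers (COL2A1, COL12A1, COL14A1 and ITGAE) kept their calls. Median-of-ratios scaling moved the split of all calls from 22.3% higher to 50.9% higher and called 9 members higher and 6 lower, beside 13.5% and 13.0% of all tested genes.

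**Figure D3:**
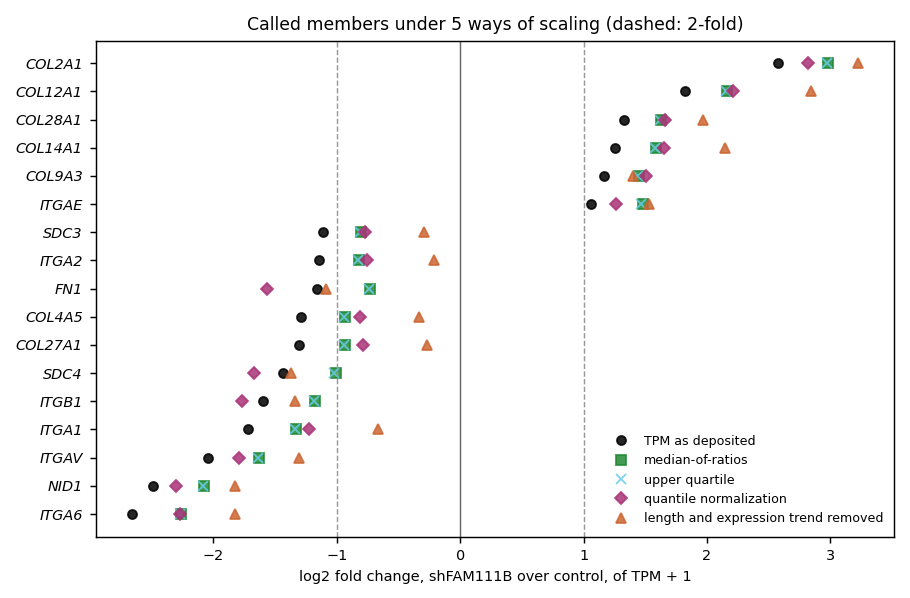
Log2 fold change (shFAM111B over control, of TPM + 1) of the 17 called members under 5 ways of scaling, with dashed lines at 2-fold. COL2A1, COL12A1, COL14A1, COL28A1, COL9A3, ITGAE, ITGA6, NID1, ITGAV, ITGB1 and SDC4 stayed past 2-fold under all 5, whereas SDC3, ITGA2, COL4A5 and COL27A1 did so for TPM as deposited alone.

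To place the members in their pathway, 5 lists of related genes were described in the same way. In the integrin adhesome, the proteins that join integrins to actin and to kinase signalling, 29 of 31 genes were tested, and 1 rose, 10 fell, 2 were higher and 8 lower by less than 2-fold, and 8 did not pass. Beside these 10 falls stand 23.7% lower over all tested genes and 37.9% for those of 4000 to 8000 nt, and 34.5% of the tested genes of this list fell. The median log2 fold change was −0.71. Under median-of-ratios scaling, 3 genes were called higher (10.3%) and 6 lower (20.7%), beside 13.5% and 13.0% of all tested genes. With the length and expression trend removed, 2 were called higher (6.90%) and 3 lower (LIMS1, RSU1 and VCL, 10.3%). Beside these stand 10.4% and 8.38% of all tested genes. LIMS1 and LIMS2, paralogous adaptors of integrin-linked kinase, moved in opposite directions: LIMS1 fell from 40.7 ± 1.07 to 9.49 ± 0.576 TPM (SD, n = 3, log2 fold change −1.99, adjusted p = 2.63e-06 by limma's moderated test) and LIMS2 rose from 2.05 ± 0.414 to 8.81 ± 1.07 TPM (1.69, adjusted p = 4.50e-05). TNS3, a tensin that binds integrin tails, fell from 38.7 ± 1.66 to 9.69 ± 0.703 TPM, with a log2 fold change of −1.89 that was −0.95 with that trend removed.

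Of the 31 genes of collagen maturation and crosslinking, 23 were tested. None rose and 4 fell by at least 2-fold, 7 were higher and 5 lower by less, and 7 did not pass. The median was −0.02. The falls were 17.4% of the tested genes of this list, and over all tested genes 6.82% rose and 23.7% fell. Under median-of-ratios scaling, 2 genes of the list rose (8.70%) and 1 fell (4.35%), beside 13.5% and 13.0% of all tested genes. With the length and expression trend removed, 3 rose (13.0%) and 0 fell, beside 10.4% and 8.38% of all tested genes. PLOD2, a lysyl hydroxylase of collagen telopeptides, fell from 92.5 ± 5.61 to 35.6 ± 1.73 TPM (SD, n = 3, log2 fold change −1.35, adjusted p = 4.96e-06 by limma's moderated test), and LOXL4, of the lysyl oxidase family that crosslinks collagen, from 52.2 ± 4.004 to 23.6 ± 0.822 TPM (−1.11, adjusted p = 1.36e-05). Both were short of 2-fold under median-of-ratios scaling (−0.93 and −0.70).

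Among 26 matrix proteases and their inhibitors, 15 were tested. Of these, 2 rose, 4 fell, 4 were higher and 4 lower by less than 2-fold, and 1 did not pass. The median was −0.33. The calls were 13.3% higher and 26.7% lower, beside 6.82% and 23.7% over all tested genes. Under each of the 3 scalings, 4 were called higher (26.7%) and 3 lower (20.0%). Over all tested genes, median-of-ratios scaling gave 13.5% higher and 13.0% lower. TIMP1, an inhibitor of matrix metalloproteinases, rose from 3.15 ± 0.705 to 19.8 ± 2.46 TPM (SD, n = 3, log2 fold change 2.33), and PLAU, the urokinase plasminogen activator, from 3.19 ± 0.386 to 9.64 ± 2.06 TPM (1.33). ADAM10, a membrane sheddase, fell from 89.2 ± 9.52 to 10.1 ± 0.141 TPM (−3.02). The adjusted p of these 3 genes by limma's moderated test was 1.45e-05, 0.000267 and 1.89e-06 in the same order.

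Of 18 other matrix receptors, basement membrane proteins and glypicans, 11 were tested, and SPARC alone was called, with a rise from 13.7 ± 1.78 to 50.5 ± 4.16 TPM (SD, n = 3, log2 fold change 1.82, adjusted p = 9.22e-06 by limma's moderated test). SPARC is a collagen-binding protein of the matrix. A further 3 genes of this list were higher and 5 lower by less than 2-fold, 2 did not pass, and the median was −0.32. The call of SPARC is 9.09% of the tested genes of this list, beside 6.82% higher over all tested genes. Of 15 genes of the TGF-beta pathway, a main inducer of matrix genes, 11 were tested, and none rose, 8 fell by at least 2-fold, 1 was higher and 1 lower by less, and 1 did not pass, with a median of −1.18. Beside the 8 falls stand 23.7% lower over all tested genes and 37.9% for those of 4000 to 8000 nt. Under median-of-ratios scaling 5 of the 8 kept the call, which is 45.5% of those tested, beside 13.0% of all tested genes. With the length and expression trend removed TGFBR1 alone kept it, which is 9.09%, beside 8.38% of all tested genes. In each of these settings 1 gene of the list was called higher (9.09%), beside 13.5% and 10.4% of all tested genes. The receptor TGFBR1 fell from 18.9 ± 1.68 to 3.54 ± 0.174 TPM (log2 fold change −2.13, adjusted p = 4.21e-06) and the signal transducer SMAD3 from 33.3 ± 0.845 to 9.12 ± 0.0577 TPM (−1.76, adjusted p = 2.63e-06). SMAD3 was at −0.85 with the length and expression trend removed. With the length and expression trend removed, the medians of the 5 lists were 0.03, 0.23, 0.38, 0.49 and −0.54 in the order given here.

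**Figure D4:**
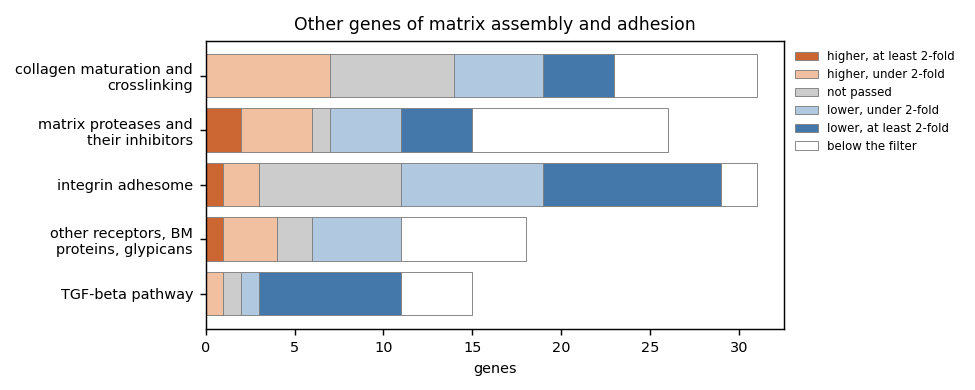
Number of genes in each of the 5 lists that were higher or lower at 2-fold, higher or lower by less than 2-fold at an adjusted p under 0.05, not passed, or below the filter. The TGF-beta list had 8 of its 11 tested genes lower by at least 2-fold, and the integrin adhesome 10 of 29.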

How the data were processed

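RNA sequencing of 3 Huh7 control and 3 Huh7 shFAM111B libraries was used, without the 6 Hep3B libraries. The deposited Huh7 table gave TPM per library, which the submitters' notes connect with RSEM, DESeq2 and hg38 without versions. The labels give a stranded poly(A) kit and the paper a TruSeq kit. The authors also deposited group means and their own comparison, made up of a fold change (ratio) and its log2 together with raw and adjusted p-values, none of which was used.

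The 14394 genes that reached 1 TPM in 3 or more libraries were compared on log2(TPM + 1) by limma-trend (limma 3.58.1, R 4.3.3) without covariates, so a fold change understates that of low genes. Benjamini-Hochberg adjustment ran over all tested genes. Calls needed a 2-fold change and P under 0.05. On simulated data, 197 of 200 changed genes were called with the right sign, and 44 of the unchanged genes among the 14394 were called. Unlike the real data, these had independent noise, as many rises as falls and no length trend. They checked the code and do not measure how reliable the calls are here. Alternatives were a pseudocount of 0.1, no filter, 1 TPM in every library, 3 scalings (median-of-ratios, upper-quartile, quantile), a replicate block, leaving out each library, 2 other call rules, and a loess trend (span 0.75) over expression and the longest GENCODE v29 transcript. Lengths were found for 14251 tested genes.

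Members, lists and tests were chosen with earlier results of these data known. The rule named FAM111B, members of at least 10 TPM on average in a group, the 3 largest called rises and falls of each family, partners of ITGB1, COL4A1 and COL6A1, and from each pathway list the 2 called genes of smallest p in each direction. The result of 1 gene that this rule names is not reported here, and it stays in the totals. COL14A1, COL9A3, other low members and chains named as partners (COL1A1, COL5A1, COL9A1, ITGB2 and ITGB7) were named after their values were seen. Python 3.11.15 with pandas 2.3.3, numpy 2.4.6 and matplotlib 3.10.9 made the tables and figures.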

Additional observations from a re-analysis of the deposited data

How the results depend on the processing

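Over all tested genes, 981 were called higher and 3409 lower, with a median log2 fold change of −0.36. The calls came to 1937 and 1872 under median-of-ratios scaling (median 0.0035), 1899 and 1910 under upper-quartile scaling (−0.0062), 1694 and 1849 under quantile normalization (−0.0298), and 1475 and 1194 with the length and expression trend removed (0.0269). A minimum of 1 TPM in every library gave 634 higher calls, adjusted p under 0.05 at any fold gave 3044 and 7326, and the median was −0.42 at a pseudocount of 0.1 and −0.0439 without a filter. Among the members, 6 higher and 11 lower calls became 9 and 6, 9 and 6, and 9 and 7 under the 3 scalings, 12 and 6 with the trend removed and 13 and 21 at any fold. The members' median of −0.02 became 0.22, 0.22, 0.24 and 0.54 under the first 4 of these settings, and −0.27 at 1 TPM in every library. Leaving out each library gave 918 to 1087 higher and 3362 to 3554 lower calls, 4 to 6 and 11 among the members, and members' medians of −0.24 to −0.0714. FAM111B was called lower under every setting that tested it, but at 1 TPM in every library it was not tested.

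Signs turned for genes under 2-fold only. AGRN stood at 0.13, 0.12, 0.0298 and 0.48 under median-of-ratios, upper-quartile, quantile and trend removal, and LAMA3 at 0.22, 0.22, 0.24 and 0.71. ITGB3BP stood at 0.0884, 0.0780 and 0.0978 under the 3 scalings. ITGA5 (0.13, 0.12 and 0.17) and LAMB1 (0.15, 0.14 and 0.14) turned under all but quantile normalization. Trend removal alone turned COL5A2 (0.0661), HSPG2 (0.26), ITGAL (0.0296), ITGB5 (0.14) and LAMB4 (0.0379). Leaving out 1 library moved ITGA7 between −0.14 and 0.15, ITGB4 between −0.11 and 0.37 and LAMA3 between −0.29 and 0.29. Beside these 29 turns, the values of named genes kept their direction and side of the threshold in 691 cases, gained a call in 15 and lost it in 31. The cause of these changes was not tested.

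With the replicate number as a block, 996 genes were higher and 3410 lower, the members kept 6 and 11 calls, and the medians were −0.36 and −0.02. Same-numbered libraries correlated weakly in their deviations from the group means (0.0349 to 0.0908), so the numbers were not read as pairs, although 5 of 6 libraries correlated best with their own number. Unknown depth limits every value of a few TPM.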

Other observations

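Some untested members had a value above 1 TPM in a single library. LAMA2, the laminin alpha chain of muscle, had 6.68 TPM in shFAM111B replicate 2 and at most 0.02 TPM in the other 5 libraries. ITGA2B, the platelet integrin subunit, had 4.59 TPM in shFAM111B replicate 3 and at most 0.46 TPM elsewhere. ITGA3 had 1.93 TPM in shFAM111B replicate 2 and at most 0.65 TPM elsewhere. ITGB1BP2, a muscle protein that binds ITGB1, had 0.14, 0.07 and 0.47 TPM in control and 1.04, 0.87 and 1.18 TPM in shFAM111B libraries, which did not overlap, and it missed the filter by 1 library. LAMA4 had 0.72, 0.56 and 0.58 TPM in control and 1.45, 0.88 and 1.22 TPM in shFAM111B libraries, again without overlap and below the filter.

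Over the tested genes, libraries of 1 group correlated at 0.969 to 0.984 and libraries of different groups at 0.865 to 0.883 (Pearson correlation of log2 values across genes, which are not independent replicates). At most 0.889% of the tested genes had identical TPM in any pair of libraries.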
